A study of Homo sapiens with 30 samples.

Results

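Glycolysis and the pentose phosphate pathway were followed in diffuse large B-cell lymphoma (DLBCL) cells through 31 genes, listed by symbol step by step along the pathways. All 31 were found among the 21112 genes of the deposited tables. Gene expression had been profiled by RNA sequencing in 4 established DLBCL cell lines, OCI-Ly10 and TMD8 of the activated B-cell-like (ABC) subtype and HT and K422 of the germinal center B-cell-like (GCB) subtype. Each line had been treated with AZD8186, an inhibitor of the β and δ isoforms of phosphoinositide 3-kinase (PI3K), at 0.5 µM, or with the solvent DMSO, for 6, 12, 18 and 24 h, and TMD8 has no 12 h libraries here. The 30 libraries form 15 pairs matched for line and time, 7 in ABC and 8 in GCB. The labels name DMSO, whereas the text of the series calls the controls untreated. The study had chosen these lines because they were sensitive to the compound, so resistant cells are not represented. Every condition has 1 library and no source used here says that time points came from separate cultures, so p-values rest on library-to-library spread that may be technical only.

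Glycolysis converts glucose to pyruvate, with control mainly at the hexokinase and phosphofructokinase steps. Lactate dehydrogenase turns the pyruvate into lactate, which leaves the cell through monocarboxylate transporters, or pyruvate enters the mitochondria, where pyruvate dehydrogenase converts it to acetyl-CoA. The pentose phosphate pathway branches off at glucose 6-phosphate and yields NADPH and ribose for nucleotides. PI3K signaling through AKT is known to promote glucose uptake and glycolysis in activated lymphocytes and in lymphoma cells.

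The libraries held 15820230 to 23579029 expected counts. Of these, 1.75% to 2.49% fell on the 31 genes in AZD8186 libraries of the ABC lines, against 2.24% to 2.58% in their DMSO libraries. In the GCB lines it was 2.58% to 4.42% under AZD8186, against 2.99% to 4.23% under DMSO. Levels of different genes are given in TPM, transcripts scaled for length and to a fixed total. Levels of 1 gene are given in CPM, counts scaled for library size by the trimmed mean of M-values (TMM). B-cell markers were detected in every line, although BANK1 was below 1 TPM in every HT library. The 8 B-cell genes summed to 1632 to 2053 TPM under AZD8186, against 1415 to 1583 TPM under DMSO in OCI-Ly10, and to 1983 to 2443 TPM, against 1289 to 1654 TPM in TMD8, without overlap. They summed to 2770 to 3375 TPM, against 2629 to 2783 TPM in HT, and to 2280 to 3040 TPM, against 2185 to 2430 TPM in K422, with overlap. Of the 6 T-cell and 7 stromal marker genes measured, K422 showed 4 and 1 at 1 TPM or more. The T-cell genes summed to 192 to 207 TPM under AZD8186 and 196 to 216 TPM under DMSO, and the stromal genes to 154 to 187 TPM and 98.1 to 127 TPM, nearly all of it from DCN. HT held 3 of the T-cell genes at 1 TPM or more, with sums of 28.3 to 29.4 TPM under AZD8186 and 29.9 to 32.8 TPM under DMSO. In OCI-Ly10 DMSO libraries 4 of the T-cell genes stayed below 1 TPM, with sums of 2.24 to 3.37 TPM. Of the T-cell genes, CD3G, CD3D and CD247 reached 116, 87.3 and 34.1 TPM at most, against 1.81 for CD2, 1.65 for CD3E and 0.1 for CD8A. COL1A1 was at most 0.47 TPM in any library, and the myeloid genes summed to at most 1.28 TPM. The part of any of these transcripts in the results was not tested. In bulk RNA, fewer cells with a transcript and less of it per cell cannot be told apart.

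In DMSO libraries GAPDH was the most abundant of the 31 transcripts, with 26228 ± 893 TPM in K422, 16521 ± 519.6 in HT, 7052 ± 425 in OCI-Ly10 and 6441 ± 261 in TMD8 (mean ± SD over time points). ENO1 followed with line means between 2444 TPM in HT and 3522 TPM in K422, and K422, TMD8 and OCI-Ly10 overlapped with their neighbours in that order. Levels of single isoforms differed between lines, although ENO2 took at most 4.27% of the summed TPM of ENO1 and ENO2 in any library. ENO2, the neuronal enolase, had 95.1 ± 8.94 TPM in HT, 16.4 ± 1.49 in K422, 4.18 ± 1.88 in TMD8 and 2.49 ± 0.628 in OCI-Ly10, and only TMD8 and OCI-Ly10 overlapped. HK1 was higher in the GCB lines, at 153 ± 12.0 TPM in K422 and 121 ± 10.3 in HT, against 39.3 ± 13.7 in TMD8 and 26.2 ± 5.90 in OCI-Ly10. PFKFB2 had no counts in any of the 8 K422 libraries, which at the shallowest of them allows up to 0.171 CPM, and gets no fold change there. RSEM shares reads among similar sequences, so levels of GAPDH, ENO1, LDHA, PGAM1, PGK1, TPI1 and ALDOA, which have processed pseudogenes, carry that uncertainty.

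**Figure D1:**
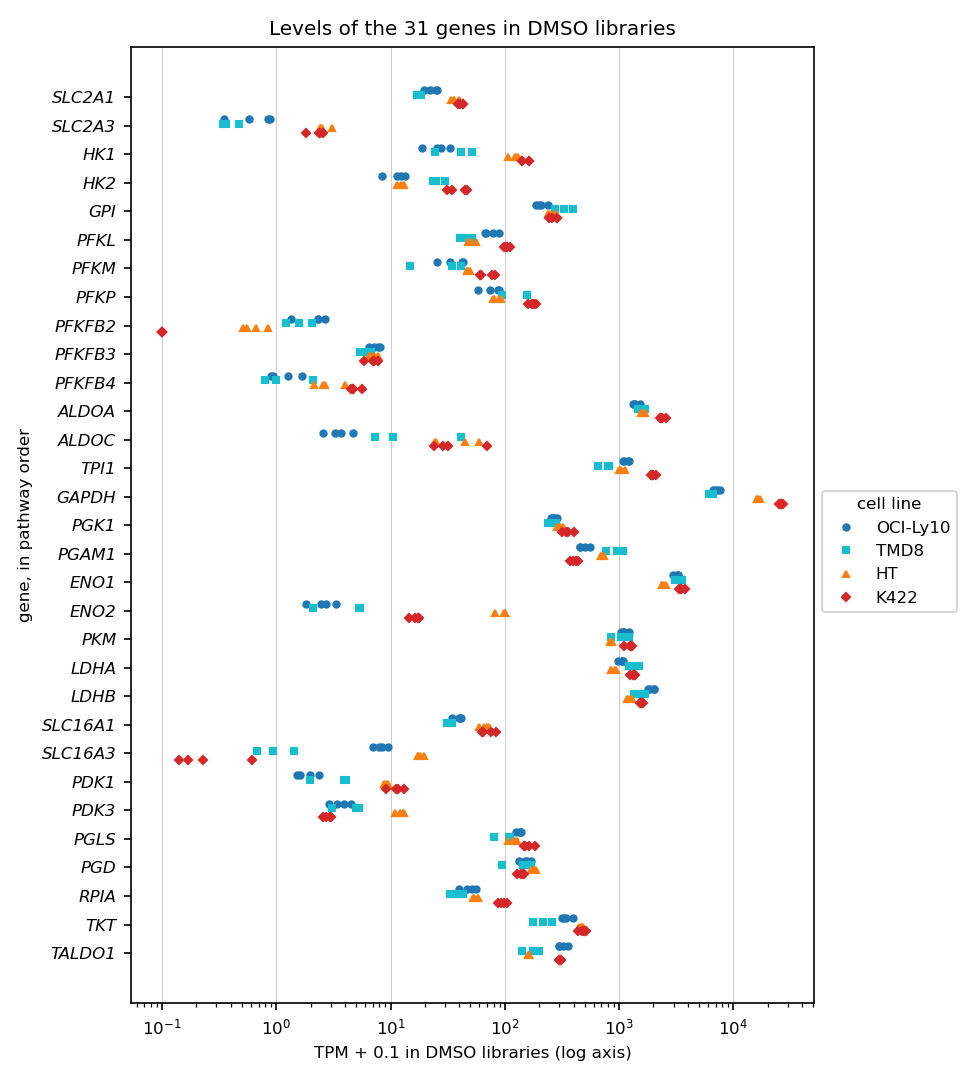
Levels in DMSO libraries of the 31 genes in pathway order, in TPM on a log axis with a small offset, 1 point per library and 1 symbol per cell line. GAPDH lies highest in all lines, ENO2 and SLC16A3 differ most between lines, and PFKFB2 sits at the offset in K422, where it had no counts.

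To see which steps changed under AZD8186, the drug libraries were compared with the DMSO libraries over all time points of a subtype. The test was edgeR's quasi-likelihood F test with Benjamini-Hochberg adjustment over all genes tested, and a gene was called at an adjusted p under 0.05. In the ABC lines 9 of 31 members were lower and 2 higher under AZD8186 (29% and 6.45%), against 13.8% lower and 15.3% higher of all 11419 genes tested. In the GCB lines 15 were lower and 2 higher (48.4% and 6.45%), against 23.5% and 25.9% of 10965 genes. The median log2 fold change of the members was -0.13 in ABC and -0.12 in GCB, beside 0.0072 and 0.025 for all genes. Of the 9 members lower in ABC, 8 were also lower in GCB (88.9% of the ABC and 53.3% of the GCB calls), namely HK1, HK2, PFKP, PFKFB3, PGK1, PGAM1, ENO1 and LDHA. The share of all genes called lower in both subtypes was not computed. The 2 members higher in ABC, PFKFB2 and PDK3, were not those higher in GCB, PGLS and RPIA. HK1, HK2, PFKFB3, ENO1 and LDHA were lower under AZD8186 in each of the 15 pairs. How many of all genes were lower in every pair was not counted. For every member the AZD8186 and DMSO libraries of a subtype overlapped in level. Of the 11286 genes of the joint fit over all lines, 0.709% lay wholly below and 0.638% wholly above DMSO in ABC, and 1.94% and 1.62% in GCB.

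**Figure D2:**
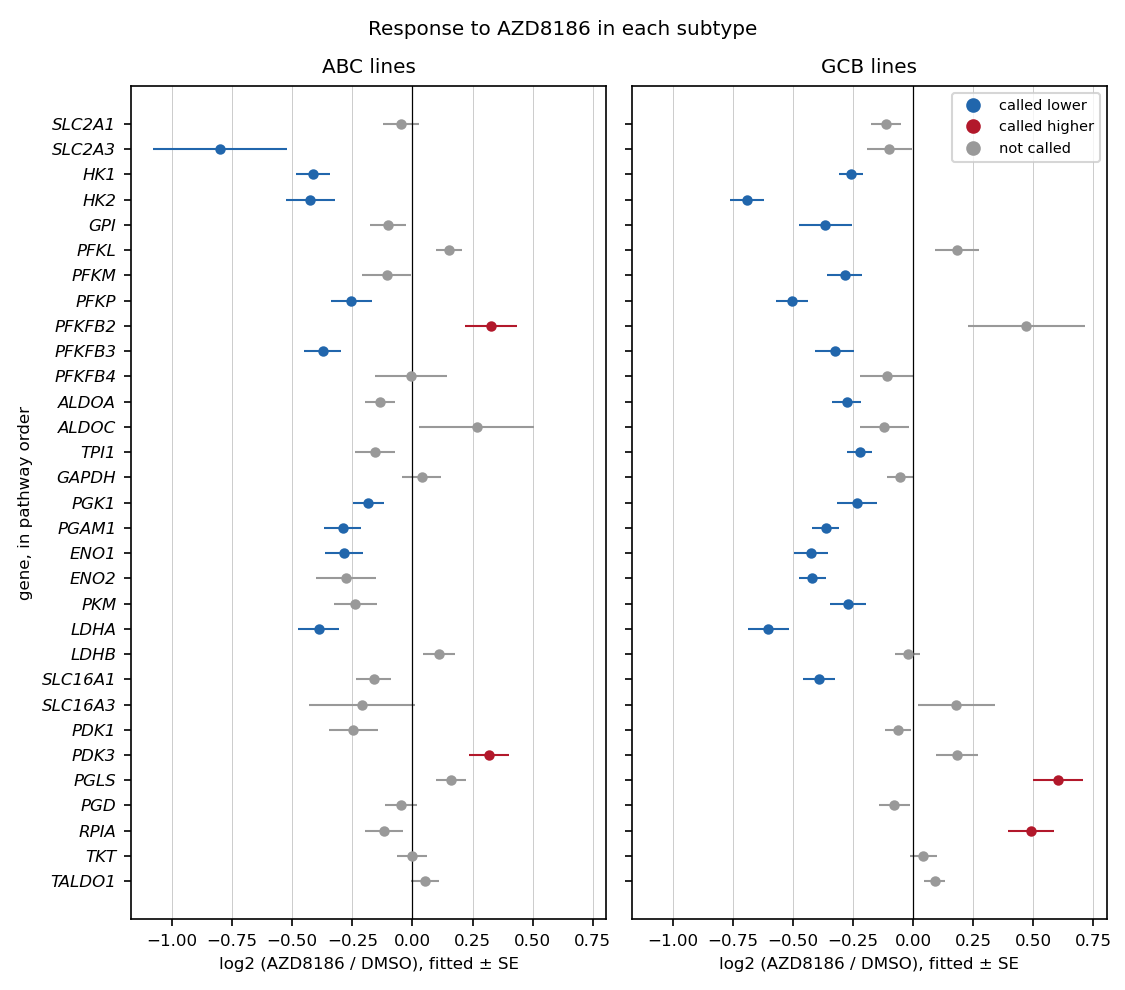
Fitted log2 ratios of AZD8186 to DMSO with their SE for the 31 genes in pathway order, in ABC lines (14 libraries) and GCB lines (16 libraries). Blue marks genes called lower (9 in ABC, 15 in GCB), red those called higher (2 in each) and grey those not called.

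The counts in ABC depended on the scale. On log2(TPM + 1), tested with limma, the median of all genes was itself -0.15 in ABC and -0.03 in GCB. On that scale 19 members were lower and 0 higher in ABC, beside 37.5% and 5.43% of all genes, and 15 and 2 in GCB, beside 28.1% and 19%. Relative to all genes, the members' median was -0.15 on TPM and -0.14 with TMM in ABC, and -0.16 and -0.14 in GCB. Ribosomal protein genes took 21.7% to 26.1% of the counts in AZD8186 libraries of the ABC lines, against 17.7% to 23.5% in DMSO libraries, and in GCB 13.8% to 18.6% against 11.5% to 17.4%. Without ribosomal protein and ribosomal RNA genes, 10 members were lower and 2 higher in ABC, beside 1567 and 1647 of all genes. In GCB these were 15 and 2, beside 2551 and 2812. The ABC calls rest on few libraries: without the 18 h or the 24 h pair of OCI-Ly10, 4 members were lower and 0 higher, while 8.36% or 8.75% of all genes were lower and 9.68% or 9.84% higher. HK1, HK2, PFKFB3 and LDHA kept their call in each of the 7 leave-outs, and no other member did. In GCB, 13 to 15 members stayed lower whichever pair was left out, beside 2122 to 2571 of all genes.

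Glucose enters through the transporters of the SLC2A family, and neither of the members was called in GCB. SLC2A1, the widely expressed transporter GLUT1, had 46.7 to 82.5 CPM (median 71.7) in AZD8186 libraries and 46.7 to 81.5 CPM (median 68.6) in DMSO libraries of ABC lines. GCB lines had 77.1 to 115 CPM (median 90.9) in AZD8186 libraries and 89.999 to 108 CPM (median 97.9) in DMSO libraries. Its log2 fold change was -0.05 ± 0.07 (SE, adjusted p = 0.66) in ABC and -0.11 ± 0.06 (SE, adjusted p = 0.148) in GCB, and within K422 it was lower at -0.25 ± 0.07 (SE, adjusted p = 0.00944), a call lost without the 6 h or 12 h pair. SLC2A3, the high-affinity transporter GLUT3, had 0.419 to 1.54 CPM (median 0.826) in AZD8186 libraries and 0.840 to 2.55 CPM (median 1.12) in DMSO libraries of ABC lines. It was lower there (-0.80 ± 0.28 SE, adjusted p = 0.043). That call was lost without the 12 h, 18 h or 24 h pair of OCI-Ly10 or the 24 h pair of TMD8, and without a filter on low counts.

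Hexokinases phosphorylate glucose and trap it in the cell, and both members fell in both subtypes. HK2, the inducible hexokinase at chr2:74834127-74893359 (GRCh38.p12), had 85.7, 88.7, 134 and 112 CPM in AZD8186 libraries of K422 at 6, 12, 18 and 24 h, against 175, 159, 216 and 204 CPM in DMSO libraries. In HT it had 43.1, 45.0, 54.8 and 44.5 CPM under AZD8186, against 60.9, 65.3, 70.1 and 67.1 CPM under DMSO. In both GCB lines every AZD8186 library lay below every DMSO library. The log2 fold change was -0.69 ± 0.07 (SE, adjusted p = 3.50e-06) in GCB, -0.85 ± 0.12 (SE, adjusted p = 1.70e-05) in K422 and -0.49 ± 0.12 (SE, adjusted p = 0.00971) in HT, where the call was lost without the 24 h pair (adjusted p = 0.0584). In TMD8 HK2 had 77.5, 129.6 and 151 CPM under AZD8186 at 6, 18 and 24 h, against 185, 155 and 165 CPM under DMSO, so the groups did not overlap and the gap was widest at 6 h. In OCI-Ly10 the libraries had 51.7, 62.0, 55.4 and 56.5 CPM under AZD8186, against 59.7, 78.9, 71.3 and 77.4 CPM under DMSO, and the lowest DMSO library, at 6 h, lay within the AZD8186 range. Over both ABC lines the log2 fold change was -0.43 ± 0.10 (SE, adjusted p = 0.00717). Within TMD8 it was -0.54 ± 0.14 (SE, adjusted p = 0.0126), and that call was lost without the 6 h pair, where the log2 fold change was -0.20 (adjusted p = 0.123), and in a model of TMD8 alone (adjusted p = 0.175).

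HK1, the constitutive hexokinase of most tissues, fell in ABC (-0.41 ± 0.07 SE, adjusted p = 9.41e-04) and in GCB (-0.26 ± 0.05 SE, adjusted p = 5.76e-04), on the log2 scale. Its levels were 59.8 to 102 CPM (median 66.6) in AZD8186 libraries and 66.1 to 141 CPM (median 89.9) in DMSO libraries of ABC lines. TMD8 had 66.6, 86.2 and 102 CPM under AZD8186, against 89.9, 135 and 141 CPM under DMSO. The fitted log2 ratio was -0.51 ± 0.07 (SE, adjusted p = 1.66e-04). In both treatments the later TMD8 libraries held more HK1 than the 6 h ones, and each AZD8186 library stayed below its DMSO partner. K422 had 279, 277, 265 and 301 CPM under AZD8186, against 352, 359.6, 372 and 366 CPM under DMSO, with no overlap. HT showed 266, 284, 296 and 301 CPM under AZD8186 and 282, 317, 329 and 326 CPM under DMSO, and there the change was not called (log2 fold change -0.13 ± 0.06 SE, adjusted p = 0.147). The share of HK2 in the summed TPM of HK1 and HK2 was 6.73% to 8.30% under AZD8186 and 9.12% to 9.54% under DMSO in HT, without overlap. It was 29.6% to 30.6% and 28.6% to 32.2% in OCI-Ly10, 13.1% to 19.8% and 17.8% to 22.2% in K422, and 36.3% to 42.4% and 36.0% to 50.2% in TMD8, and in these 3 lines the ranges overlapped.

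Glucose phosphate isomerase, GPI, and the phosphofructokinases PFKL, PFKM and PFKP carry the sugar to fructose bisphosphate, the committed step of glycolysis. PFKP, the platelet-type subunit at chr10:3067548-3136805, was the member with the smallest adjusted p in K422, where it had 173, 178, 187 and 183 CPM under AZD8186 at 6, 12, 18 and 24 h, against 305, 288, 304 and 286 CPM under DMSO. The K422 groups lay far apart (log2 fold change -0.71 ± 0.05 SE, adjusted p = 3.52e-08). HT had 126, 127, 137 and 134 CPM under AZD8186, against 150.5, 149, 169.7 and 167 CPM under DMSO, without overlap (log2 fold change -0.28 ± 0.05 SE, adjusted p = 0.00207). OCI-Ly10 had 109, 128, 143 and 113 CPM under AZD8186, against 146, 167, 193 and 182 CPM under DMSO, again without overlap (log2 fold change -0.48 ± 0.05 SE, adjusted p = 2.20e-05). In TMD8, PFKP had 245, 386 and 311 CPM under AZD8186 and 247, 361 and 304 CPM under DMSO, and the paired libraries were close (log2 fold change 0.04 ± 0.06 SE, adjusted p = 0.702). Over both ABC lines the log2 fold change was -0.25 ± 0.09 (SE, adjusted p = 0.0365), a call lost without any 1 pair of OCI-Ly10. All 3 lines in which PFKP fell showed it at every time point.

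PFKL, the liver-type subunit, went the other way in HT, where it had 133, 153, 143 and 153 CPM under AZD8186, against 119, 104, 101 and 99.0 CPM under DMSO, with every AZD8186 library above every DMSO library (log2 fold change 0.46 ± 0.07 SE, adjusted p = 3.42e-04). K422 had 186, 226, 183 and 159 CPM under AZD8186 and 202, 226, 192 and 175 CPM under DMSO, with overlap (log2 fold change -0.07 ± 0.07 SE, adjusted p = 0.403). In ABC the value was 0.15 ± 0.05 (SE, adjusted p = 0.05), and TMD8 had every AZD8186 library above every DMSO library without passing the test (0.23 ± 0.08 SE, adjusted p = 0.0592). PFKM, the muscle-type subunit, fell in GCB (-0.29 ± 0.07 SE, adjusted p = 0.00415) and within TMD8 (-0.41 ± 0.11 SE, adjusted p = 0.0157) and HT (-0.33 ± 0.09 SE, adjusted p = 0.0199). In TMD8, HT and K422 its ratio at 6 h was nearer to 0 than at later times, and the calls were lost without the 18 h or 24 h pair in TMD8 and without the 12 h, 18 h or 24 h pair in HT. GPI fell in GCB (-0.37 ± 0.11 SE, adjusted p = 0.0124). K422 had 757, 583, 421.8 and 373 CPM under AZD8186 and 747, 729, 773 and 749.7 CPM under DMSO. The decrease was absent at 6 h and widest at 24 h, and the GCB call was lost without the 18 h pair of K422 (adjusted p = 0.0502). As a share of the summed TPM of the 3 subunits, PFKP made up 29.1% to 32.5% under AZD8186 and 38.5% to 42.0% under DMSO in OCI-Ly10. It made up 37.5% to 41.7% and 43.5% to 48.7% in HT, and 37.9% to 42.8% and 47.9% to 51.5% in K422, and none of these 3 lines showed overlap. In TMD8 the PFKP shares were 62.1% to 68.1% and 62.5% to 66.6%, and they overlapped.

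The PFKFB enzymes make and break down fructose 2,6-bisphosphate, the activator of phosphofructokinase. PFKFB3, the isoform with the strongest kinase activity, fell in ABC (-0.37 ± 0.08 SE, adjusted p = 0.00328) and in GCB (-0.33 ± 0.08 SE, adjusted p = 0.00403). K422 had 13.97, 12.9, 14.7 and 13.04 CPM under AZD8186, against 21.6, 18.1, 19.6 and 21.4 CPM under DMSO. TMD8 had 15.03, 15.9 and 18.1 CPM, against 24.0, 22.1 and 22.1 CPM. OCI-Ly10 had 18.1, 23.5, 23.8 and 24.5 CPM under AZD8186, against 27.3, 28.9, 26.3 and 27.8 CPM under DMSO. In these 3 lines the groups did not overlap, and in OCI-Ly10 the call was lost without the 6 h or 12 h pair. HT, with 18.5, 19.5, 22.2 and 23.2 CPM under AZD8186 and 20.9, 21.2, 23.0 and 23.6 CPM under DMSO, changed little (log2 fold change -0.09 ± 0.08 SE, adjusted p = 0.473). PFKFB2 was higher in ABC (0.33 ± 0.11 SE, adjusted p = 0.0333). OCI-Ly10 had 11.8, 12.2, 15.9 and 21.2 CPM under AZD8186, against 7.78, 11.6, 11.5 and 12.1 CPM under DMSO. TMD8 had 6.62, 8.76 and 9.53 CPM and 6.42, 8.29 and 8.80 CPM, and its log2 fold change was 0.08 ± 0.19 (SE, adjusted p = 0.8). The PFKFB2 call in ABC was lost without the 6 h, 18 h or 24 h pair of OCI-Ly10 and without all 6 h libraries (adjusted p = 0.0514). It was also lost with limma on log2(TPM + 1) (0.07, adjusted p = 0.493). PFKFB4, the isoform induced by hypoxia in many cells, was lower in K422, at 7.68, 9.82, 9.13 and 9.69 CPM under AZD8186 and 11.0, 11.6, 10.7 and 12.4 CPM under DMSO (log2 fold change -0.33 ± 0.10 SE, adjusted p = 0.0129). HT had 5.25, 7.44, 7.72 and 11.5 CPM and 5.46, 6.45, 6.84 and 9.74 CPM, and its value of 0.15 ± 0.11 (SE, adjusted p = 0.354) was not called, while the K422 call was lost without the 6 h pair.

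**Figure D3:**
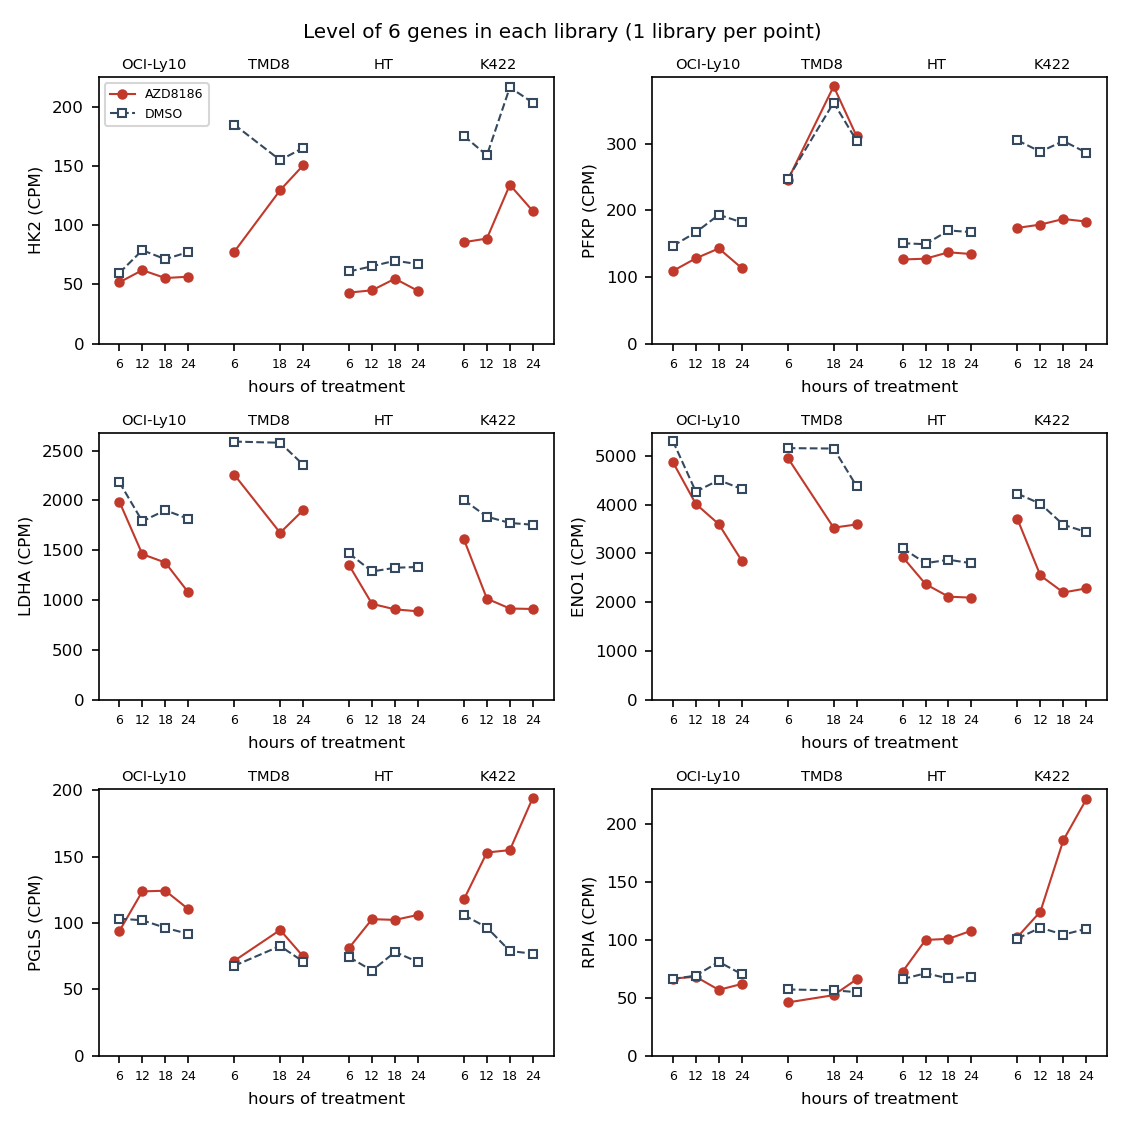
Levels in CPM of HK2, PFKP, LDHA, ENO1, PGLS and RPIA in each library, by cell line and hours of treatment, AZD8186 as filled circles and DMSO as open squares, 1 library per point and axes from 0. The circles lie below the squares in all pairs for HK2, LDHA and ENO1, PFKP is close in TMD8 alone, and PGLS and RPIA part with time in HT and K422.

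The later steps of glycolysis, with aldolase, triose phosphate isomerase, GAPDH, phosphoglycerate kinase and mutase, enolase and pyruvate kinase, has 9 members, of which 3 fell in ABC and 7 in GCB, and none rose, beside 13.8% and 23.5% of all genes that were lower. ENO1, the main enolase, had 3703, 2545, 2196 and 2280.3 CPM under AZD8186 in K422, against 4223, 4016, 3585 and 3436 CPM under DMSO. HT had 2927, 2369, 2110.4 and 2090.3 CPM, against 3103, 2797, 2868 and 2796 CPM. In OCI-Ly10 it had 4871, 4013, 3598 and 2847 CPM under AZD8186, against 5304, 4265, 4501 and 4318 CPM under DMSO. TMD8 had 4958, 3525 and 3592 CPM, against 5157, 5148 and 4376 CPM. The 6 h pair was the closest of its line except in OCI-Ly10, where the 12 h pair was, and in each line the AZD8186 library of 6 h reached into the DMSO range. The log2 fold change was -0.43 ± 0.07 (SE, adjusted p = 1.91e-04) in GCB and -0.29 ± 0.08 (SE, adjusted p = 0.0147) in ABC, where the call was lost without the 18 h pair of TMD8 or the 18 h or 24 h pair of OCI-Ly10. PGAM1, the phosphoglycerate mutase, fell in ABC (-0.29 ± 0.08 SE, adjusted p = 0.0121) and in GCB (-0.36 ± 0.06 SE, adjusted p = 1.015e-04). GCB lines had 307 to 874 CPM (median 557) in AZD8186 libraries and 458 to 932 CPM (median 671) in DMSO libraries. Within K422 it had 411, 341, 314 and 307 CPM under AZD8186, against 473, 458, 463 and 473 CPM under DMSO, and these groups did not overlap, while the ABC call was lost without the 18 h or 24 h pair of OCI-Ly10. PGK1, which makes the first ATP of the pathway, fell in ABC (-0.18 ± 0.06 SE, adjusted p = 0.0423) and in GCB (-0.23 ± 0.08 SE, adjusted p = 0.03). GCB lines had 348 to 645 CPM (median 412) in AZD8186 libraries and 467 to 646 CPM (median 518) in DMSO libraries. Its GCB call was lost without the 18 h or 24 h pair of HT or the 12 h, 18 h or 24 h pair of K422, and its ABC call without any 1 of 5 pairs.

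ENO2 fell in GCB (-0.42 ± 0.06 SE, adjusted p = 3.96e-05), with 122, 123, 128 and 133 CPM under AZD8186, against 141, 166, 172 and 161 CPM under DMSO in HT. K422 had 18.8, 19.4, 15.8 and 17.1 CPM, against 23.0, 26.6, 26.2 and 25.1 CPM. Neither GCB line showed an overlap for ENO2. It was also called lower within OCI-Ly10, with 2.80, 4.22, 3.65 and 4.45 CPM under AZD8186, against 3.95, 4.88, 5.20 and 6.02 CPM under DMSO. That call was lost without the 6 h, 18 h or 24 h pair and in a model of OCI-Ly10 alone. Over both ABC lines ENO2 was not called in the main fit. PKM, the pyruvate kinase of proliferating cells, fell in GCB (-0.27 ± 0.07 SE, adjusted p = 0.00698) and was not called in ABC (-0.24 ± 0.09 SE, adjusted p = 0.0579), where its levels were 1622 to 2633 CPM (median 1998) in AZD8186 libraries and 2299.6 to 2747 CPM (median 2502) in DMSO libraries. The ABC decrease of PKM did pass with DESeq2 (adjusted p = 0.0266), without a filter, without ribosomal genes and on log2(TPM + 1). It also passed without all 6 h libraries or without the 6 h pair of either line. ALDOA, the main aldolase, and TPI1, the triose phosphate isomerase, fell in GCB, with log2 fold changes of -0.28 ± 0.06 (SE, adjusted p = 0.00174) and -0.22 ± 0.05 (SE, adjusted p = 0.00224). Their ABC values were -0.13 ± 0.06 (SE, adjusted p = 0.122) and -0.15 ± 0.08 (SE, adjusted p = 0.177). GAPDH, which makes NADH at the middle step, was called in no line and neither subtype, and its log2 fold change was 0.04 ± 0.08 (SE, adjusted p = 0.752) in ABC and -0.05 ± 0.05 (SE, adjusted p = 0.437) in GCB. ALDOC, the aldolase of brain, rose in TMD8 (0.41 ± 0.13 SE, adjusted p = 0.0342), with 70.6, 17.5 and 15.1 CPM under AZD8186, against 63.5, 14.01 and 8.28 CPM under DMSO. The level at 6 h stood far above the later ones in both treatments, the groups overlapped, and the call was lost on log2(TPM + 1), without the 18 h pair, or without the 24 h pair, where the log2 fold change was 0.23.

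Lactate dehydrogenase is a tetramer of LDHA and LDHB subunits, LDHA favouring lactate formation. LDHA, at chr11:18394563-18408425, had 1609.8, 1014, 915 and 910.3 CPM in AZD8186 libraries of K422 at 6, 12, 18 and 24 h, against 2004, 1838, 1774 and 1756 CPM in DMSO libraries. HT had 1350.0, 961, 907 and 887 CPM, against 1469, 1287, 1324 and 1333 CPM. The K422 groups were apart, and in HT the AZD8186 library of 6 h was within the DMSO range. OCI-Ly10 had 1989, 1461, 1376 and 1078 CPM under AZD8186, against 2184, 1791, 1902 and 1816 CPM under DMSO. TMD8 had 2260.0, 1675 and 1902 CPM, against 2592, 2580.0 and 2360.0 CPM. The log2 fold change was -0.60 ± 0.08 (SE, adjusted p = 4.70e-05) in GCB and -0.39 ± 0.08 (SE, adjusted p = 0.00414) in ABC. Among the GCB lines it was -0.77 ± 0.12 (SE, adjusted p = 3.84e-05) in K422 and -0.42 ± 0.11 (SE, adjusted p = 0.0165) in HT. The HT call was lost without the 12 h, 18 h or 24 h pair (adjusted p up to 0.105). LDHB was not called in any line, with log2 fold changes of 0.11 ± 0.07 (SE, adjusted p = 0.22) in ABC and -0.02 ± 0.05 (SE, adjusted p = 0.726) in GCB. The LDHA share in the summed TPM of LDHA and LDHB was 21.7% to 32.1% under AZD8186, against 34.4% to 36.5% under DMSO in OCI-Ly10. It was 38.9% to 43.6% against 46.8% to 48.5% in TMD8. In HT it was 33.8% to 39.5% against 40.3% to 44.5%, and in K422 29.6% to 39.0% against 44.8% to 47.0%, so that in all 4 lines the ranges did not overlap.

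**Figure D4:**
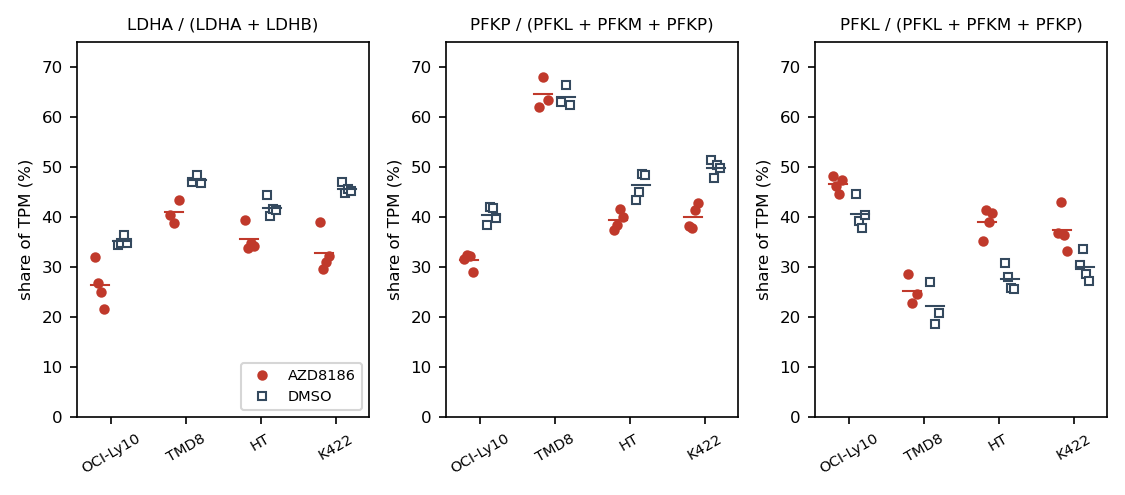
Share of TPM taken by LDHA among LDHA and LDHB, and by PFKP and PFKL among PFKL, PFKM and PFKP, per library (points) with the mean of each line and treatment (bars), AZD8186 left of DMSO. The LDHA share lies lower under AZD8186 in all 4 lines, and the PFKP share lies lower in OCI-Ly10, HT and K422 and overlaps in TMD8.

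The monocarboxylate transporters export lactate. SLC16A1, the transporter MCT1, fell in GCB (-0.39 ± 0.07 SE, adjusted p = 1.95e-04), and K422 had 123, 121, 131 and 119 CPM under AZD8186, against 172, 178, 209 and 186 CPM under DMSO, without overlap. HT had 164, 161, 185 and 165 CPM and 173, 188, 212 and 189.9 CPM, a difference that was not called (-0.17 ± 0.08 SE, adjusted p = 0.114). In ABC the value was -0.16 ± 0.07 (SE, adjusted p = 0.107). Within TMD8 SLC16A1 was called lower, with 84.3, 93.3 and 108.6 CPM under AZD8186, against 125.8, 118 and 103 CPM under DMSO. That TMD8 call was lost without the 6 h pair (log2 fold change then -0.13), without the 18 h pair, and in a model of TMD8 alone. SLC16A3, the transporter MCT4 of glycolytic cells, was lower in OCI-Ly10, with 9.41, 9.35, 8.62 and 10.9 CPM under AZD8186, against 13.2, 16.1, 13.7 and 12.1 CPM under DMSO (log2 fold change -0.51 ± 0.16 SE, adjusted p = 0.0232). The call was lost without the 12 h or 18 h pair, and SLC16A3 was not called in the other lines. Pyruvate dehydrogenase kinases inactivate the pyruvate dehydrogenase complex inside the mitochondria. PDK3 rose in ABC (0.32 ± 0.08 SE, adjusted p = 0.0116), with 32.3, 37.9, 40.1 and 36.1 CPM under AZD8186, against 27.1, 26.3, 26.6 and 26.2 CPM under DMSO in OCI-Ly10. It also rose in K422, which had 6.499, 6.38, 5.73 and 4.90 CPM, against 4.33, 4.71, 3.92 and 4.23 CPM. In both of these lines the groups did not overlap. PDK3 had log2 fold changes of 0.12 ± 0.10 (SE, adjusted p = 0.425) in TMD8 and 0.03 ± 0.08 (SE, adjusted p = 0.838) in HT, and on log2(TPM + 1) the calls in ABC, OCI-Ly10 and K422 were lost, the first also without the 18 h or 24 h pair of OCI-Ly10. PDK1 was lower in TMD8 (-0.35 ± 0.11 SE, adjusted p = 0.028), a call lost without the 24 h pair or the 18 h pair (log2 fold change then -0.22), and was not called in ABC (-0.25 ± 0.10 SE, adjusted p = 0.0838) or GCB (-0.06 ± 0.05 SE, adjusted p = 0.345).

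The pentose phosphate members are PGLS and PGD of the oxidative branch and RPIA, TKT and TALDO1 of the branch that rearranges sugars, and 2 of the 5 rose in GCB, beside 25.9% of all genes, while none was called in ABC. PGLS, the lactonase at chr19:17511649-17521288, had 118, 153, 155 and 194 CPM under AZD8186 in K422, against 106, 96.6, 78.9 and 76.9 CPM under DMSO. HT had 81.2, 103, 102 and 106 CPM, against 74.3, 64.1, 78.1 and 70.6 CPM. Every AZD8186 library of a GCB line lay above every DMSO library of that line. RPIA, the ribose phosphate isomerase at chr2:88691673-88750929, had 103, 125, 186 and 222 CPM under AZD8186, against 101, 111, 105 and 109.7 CPM under DMSO in K422. HT had 72.5, 100.02, 101 and 108 CPM, against 66.2, 71.2, 66.7 and 68.3 CPM. The HT groups were apart, and in K422 the 6 h libraries were about equal and the 18 and 24 h libraries stood out. The log2 fold changes in GCB were 0.60 ± 0.10 (SE, adjusted p = 2.46e-04) for PGLS and 0.49 ± 0.10 (SE, adjusted p = 7.54e-04) for RPIA. In ABC PGLS had 0.16 ± 0.06 (SE, adjusted p = 0.0682) and RPIA -0.12 ± 0.08 (SE, adjusted p = 0.282). Within HT both calls were lost without the 12 h, 18 h or 24 h pair (adjusted p up to 0.137 for PGLS and 0.132 for RPIA), and RPIA lost its call in K422 without the 18 h or 24 h pair. PGD, the second dehydrogenase of the oxidative branch, was lower in K422 (-0.21 ± 0.07 SE, adjusted p = 0.0269), a call lost in a model of K422 alone or without its 18 h or 24 h pair. TKT and TALDO1, the transketolase and transaldolase, had log2 fold changes of 0.04 ± 0.06 (SE, adjusted p = 0.544) and 0.09 ± 0.04 (SE, adjusted p = 0.0935) in GCB. In ABC the values were -0.00023 ± 0.06 (SE, adjusted p = 0.998) for TKT and 0.05 ± 0.06 (SE, adjusted p = 0.514) for TALDO1.

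The promoter sequences of 28 members are given by RefSeq (GRCh38.p14), with no entry for SLC2A3, PFKFB2 and SLC16A1. Each window runs from 250 bases before to 50 after a start site, which for some members lies inside the gene. They were searched on both strands for the E-box CACGTG, for ACGTG, the core of the hypoxia response element, which the E-box contains, and for TGTTTAC, a motif bound by FOXO factors. CACGTG was in 3 of the 28 (10.7%), those of ALDOC, GAPDH and LDHA, against 7.26% of 35116 RefSeq promoters. ACGTG was in 10 (35.7%), those of HK2, GPI, ALDOA, ALDOC, GAPDH, PGK1, ENO2, LDHA, PDK3 and PGD, against 21.4%, and TGTTTAC in 0, against 3.42%. These matches are descriptions of the letters and no test of binding. Shown are LDHA (chr11:18394313-18394612, plus strand) and HK2 (chr2:74833877-74834176, plus strand), which fell in both subtypes, PFKP (chr10:3067720-3068019, plus strand), with the smallest adjusted p in K422, and GAPDH (chr12:6535014-6535313, plus strand), which was not called in either subtype, 5′ to 3′ with CACGTG and ACGTG or its reverse complement CACGT in capitals.
LDHA: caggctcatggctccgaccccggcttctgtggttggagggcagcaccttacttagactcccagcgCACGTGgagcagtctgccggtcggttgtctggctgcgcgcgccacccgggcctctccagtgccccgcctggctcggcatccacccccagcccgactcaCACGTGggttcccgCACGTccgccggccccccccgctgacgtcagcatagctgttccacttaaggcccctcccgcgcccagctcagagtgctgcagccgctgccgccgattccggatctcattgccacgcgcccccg
HK2: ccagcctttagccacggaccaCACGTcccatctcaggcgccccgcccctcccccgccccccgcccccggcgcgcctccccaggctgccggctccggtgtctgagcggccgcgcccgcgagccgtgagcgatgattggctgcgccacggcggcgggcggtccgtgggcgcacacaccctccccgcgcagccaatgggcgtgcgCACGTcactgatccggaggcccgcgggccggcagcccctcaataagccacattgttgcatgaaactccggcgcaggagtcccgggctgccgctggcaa
PFKP: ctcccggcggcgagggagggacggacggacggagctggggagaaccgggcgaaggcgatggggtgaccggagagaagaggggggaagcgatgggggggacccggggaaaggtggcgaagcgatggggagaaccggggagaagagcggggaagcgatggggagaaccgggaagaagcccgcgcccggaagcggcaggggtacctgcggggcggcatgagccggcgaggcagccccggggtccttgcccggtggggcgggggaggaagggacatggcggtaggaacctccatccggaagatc
GAPDH: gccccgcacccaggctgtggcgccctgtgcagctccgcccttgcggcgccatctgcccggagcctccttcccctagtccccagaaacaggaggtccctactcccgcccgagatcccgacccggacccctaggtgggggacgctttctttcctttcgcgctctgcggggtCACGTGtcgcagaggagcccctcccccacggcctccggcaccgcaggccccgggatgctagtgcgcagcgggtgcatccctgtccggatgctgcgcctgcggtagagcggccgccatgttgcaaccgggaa

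Of these 4 windows PFKP alone holds none of these letters, and that of GAPDH, which did not pass the test, holds the E-box as LDHA does. The windows of GAPDH and PFKP lie wholly inside the gene, which begins at chr12:6534517 and at chr10:3067548. Other start sites of these genes were not searched, so the windows do not compare the genes' promoters as a whole.

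Each cell line was also compared on its own in 1 model of all 30 libraries, with every pair as a block. K422 had the most calls, with 17 members lower and 3 higher, against 22.9% lower and 26% higher of all 11286 genes. HT had 5 lower and 3 higher, against 8.93% and 10.8% of all genes. OCI-Ly10 had 8 lower and 2 higher, against 12.6% and 13%, and TMD8 had 6 lower and 1 higher, against 8.59% and 10.6%. Every AZD8186 library lay below every DMSO library for 9 members in K422 and above it for 2, against 17.4% and 17.5% of all genes. In HT these were 4 and 3 members, against 10.1% and 13.6%, in OCI-Ly10 3 and 1, against 8.76% and 8.17%, and in TMD8 3 and 1, against 9.53% and 11.1%. OCI-Ly10 and TMD8 shared 2 members called lower, HK1 and PFKFB3 (25% of the OCI-Ly10 and 33.3% of the TMD8 calls), and K422 and HT shared 4, HK2, PFKP, ENO2 and LDHA (23.5% of the K422 and 80% of the HT calls). Higher calls shared by K422 and HT were PGLS and RPIA. Calls shared between lines were not computed for all genes. On log2(TPM + 1), OCI-Ly10 had 13 members lower and 0 higher, beside 30.4% and 4.88% of all genes, and TMD8 14 and 0, beside 31.8% and 3.9%. For these 2 lines the median of all genes on that scale was -0.13 and -0.17. The smaller counts moved with single pairs, as did the share of all genes. OCI-Ly10 had 4 members lower without its 18 h or 24 h pair, beside 5.1% or 5.36% of all genes, and TMD8 3 without its 18 h pair, beside 4.4%. HT had 2 lower without its 18 h or 24 h pair, beside 3.86% or 3.91%, and 3 without its 12 h pair, beside 4.46%. K422 kept 13 to 16 lower whichever of its pairs was left out, beside 2092 to 2548 of all genes. In a model of TMD8 alone, with 6 libraries, 1 member was lower, beside 138 of all genes.

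Whether responses differed was tested directly as contrasts in that model. Between subtypes, GCB minus ABC, 2 members had a lower and 2 a higher response, a share of 6.45% each, against 8.99% and 9.99% of all genes. Spread between the lines of a subtype does not enter these p-values, so they hold for these lines and not for the subtypes at large. PFKP (difference of log2 fold changes -0.27 ± 0.06 SE, adjusted p = 0.00261) and ALDOC (-0.38 ± 0.13 SE, adjusted p = 0.0469) had the lower responses in GCB, and RPIA (0.60 ± 0.15 SE, adjusted p = 0.00809) and PGLS (0.46 ± 0.14 SE, adjusted p = 0.0283) the higher ones. For PFKP the lines interleaved, with mean log2 ratios of -0.71 in K422, -0.48 in OCI-Ly10, -0.28 in HT and 0.04 in TMD8. For ALDOC, RPIA and PGLS the means of the GCB lines lay apart from those of the ABC lines. RPIA and PFKP passed in each leave-out, PGLS was lost without any 1 of 5 pairs and ALDOC without any 1 of 10, and on log2(TPM + 1) PFKP and ALDOC were lost, with 0 members lower and 3 higher beside 4.42% and 23% of all genes. Between the GCB lines, K422 minus HT, 5 members had a lower and 1 a higher response, against 6.99% and 5.88% of all genes. These were PFKL (-0.54 ± 0.10 SE, adjusted p = 0.00263), PFKP (-0.43 ± 0.08 SE, adjusted p = 0.00194), PFKFB3 (-0.46 ± 0.12 SE, adjusted p = 0.0173), PFKFB4 (-0.48 ± 0.15 SE, adjusted p = 0.0429) and SLC16A1 (-0.41 ± 0.11 SE, adjusted p = 0.018), with PDK3 (0.43 ± 0.13 SE, adjusted p = 0.0449) on the other side. PFKL and PFKP were called in each of the 8 leave-outs, PFKFB3 was lost without the 24 h pair of either line, SLC16A1 without the 6 h pair of HT or the 18 h pair of K422, and PFKFB4 and PDK3 each in 7 of the 8. Between the ABC lines, TMD8 minus OCI-Ly10, 0 members had a lower and 1 a higher response, against 0.381% and 0.7% of all genes, and this was PFKP (0.52 ± 0.08 SE, adjusted p = 0.00427), in each leave-out. At an unadjusted p under 0.05 edgeR had 4 members lower and 2 higher in this contrast, against 5.64% and 6.67% of all genes. At an adjusted p under 0.05 limma on log2(TPM + 1) gave 0 lower and 2 higher, beside 0.806% and 0.735% of all genes.

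**Figure D5:**
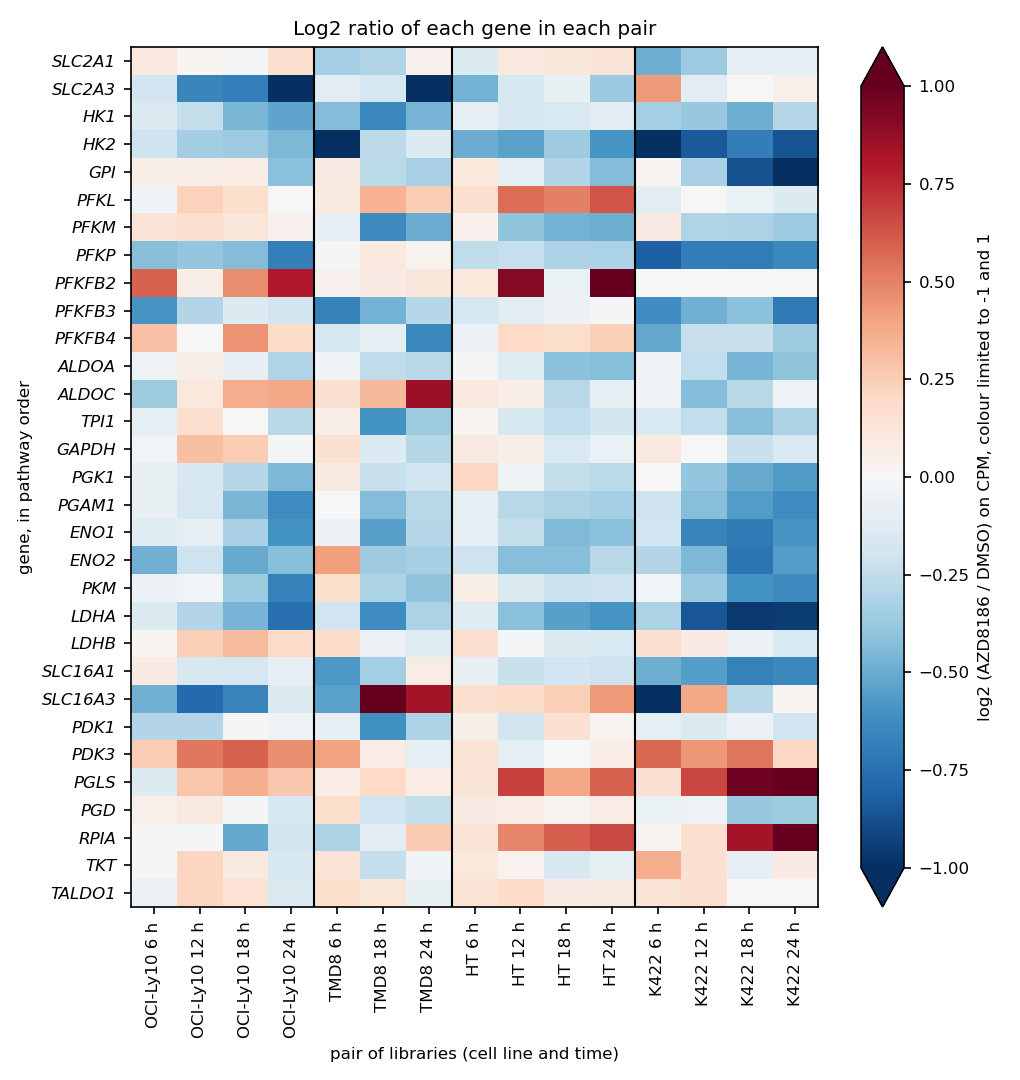
Log2 ratio of AZD8186 to DMSO of the 31 genes (rows, in pathway order) in the 15 pairs of libraries (columns, by cell line and time), blue for lower and red for higher under AZD8186, with colour limited to -1 and 1. In K422 the rows of HK2, PFKP and LDHA are blue at every time, and those of PGLS and RPIA are red at 18 and 24 h.

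To follow the response over time, the effect at 18 and 24 h was compared with that at 6 and 12 h. In ABC 2 members had a lower response late and 0 a higher one, against 0.222% and 0.381% of all genes. PKM had ratios of -0.06, -0.03, -0.36 and -0.68 (log2) in OCI-Ly10 and 0.17, -0.31 and -0.41 in TMD8, and the difference was -0.50 ± 0.10 (SE, adjusted p = 0.0453). PGAM1 had ratios of -0.08, -0.17, -0.46 and -0.62 and 0.00, -0.43 and -0.28, with a difference of -0.40 ± 0.09 (SE, adjusted p = 0.0457). At 6 h these ratios were between -0.08 and 0.17, and at 18 and 24 h all were below -0.27, but both calls were lost without the 6 h or 24 h pair of OCI-Ly10 or any 1 pair of TMD8. On log2(TPM + 1) 13 members were lower late and 0 higher, beside 9.12% and 0.727% of all genes, whose median was itself -0.15. In GCB 0 members were lower and 0 higher late, against 0% and 0.0975% of all genes, and at an unadjusted p under 0.05 edgeR had 11 lower and 3 higher, against 4.94% and 8.5% of all genes. Without a filter on low counts 2 members were lower and 1 higher, and no share of all genes is given for that setting. At an adjusted p under 0.05 limma on log2(TPM + 1) called 0 members, beside 0% lower and 0.0266% higher of all genes. LDHA had ratios of -0.32, -0.86, -0.96 and -0.95 in K422 and -0.12, -0.42, -0.55 and -0.59 in HT, nearest to 0 at 6 h, and the late minus early difference was -0.33 ± 0.11 (SE, adjusted p = 0.224). HK2 and PFKP did not follow that course: the K422 ratios were -1.03, -0.84, -0.69 and -0.86 for HK2 and -0.81, -0.69, -0.70 and -0.65 for PFKP, already below -0.8 at 6 h. RPIA had 0.02, 0.17, 0.83 and 1.01 and PGLS 0.15, 0.66, 0.97 and 1.34 in K422, highest at 24 h. Over the 31 members, the median ratio at 6 h was -0.06 in OCI-Ly10, 0.0011 in TMD8, 0.06 in HT and -0.06 in K422, and at 24 h it was -0.18, -0.24, -0.12 and -0.31.

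Control cells changed in culture too, which was tested over the 15 DMSO libraries with time as a linear term. Of 29 members tested (PFKFB2 and SLC16A3 did not pass the filter), 4 fell and 3 rose between 6 and 24 h, against 5.11% and 4.82% of 9214 genes. ALDOC fell most, with a log2 change of -1.77 ± 0.22 (SE, adjusted p = 4.86e-04) over 18 h, and its DMSO levels were 71.8, 33.6, 22.7 and 26.8 CPM in K422, 66.4, 48.2, 26.6 and 25.8 CPM in HT and 63.5, 14.01 and 8.28 CPM in TMD8. The 6 h library was the highest of each of these lines. GAPDH (-0.26 ± 0.06 SE, adjusted p = 0.0143), PGK1 (-0.22 ± 0.06 SE, adjusted p = 0.0238) and ENO1 (-0.21 ± 0.06 SE, adjusted p = 0.0437) fell less. HK1 (0.35 ± 0.08 SE, adjusted p = 0.00844), PFKM (0.47 ± 0.12 SE, adjusted p = 0.015) and PFKFB4 (0.56 ± 0.17 SE, adjusted p = 0.04) rose. The calls of ENO1, PFKFB4 and PGK1 were lost in 10, 8 and 4 of the 15 leave-outs, and that of PFKM without the 24 h library of TMD8, while its change was 0.28 without the 6 h library of TMD8. On log2(TPM + 1) the median of all genes rose by 0.19, 1 member fell and 18 rose, beside 1.11% and 39.1% of all genes, where GAPDH (-0.05), PGK1 (-0.0025) and ENO1 (0.0087) were not called and ENO1 changed sign. ALDOC alone of the 4 kept its call on that scale.

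Other genes of these pathways, were described from a list of 22. Of 18 tested, 3 were lower and 2 higher in ABC, and 7 lower and 1 higher in GCB, with median log2 fold changes of -0.05 and -0.13. As shares these are 16.7% and 11.1% in ABC, where 13.8% and 15.3% of all genes were called, and 38.9% and 5.56% in GCB, where 23.5% and 25.9% were. Among those with the smallest p in ABC were ENO3, the muscle enolase (0.35 ± 0.10 SE, adjusted p = 0.0193), and SLC2A6, a facilitative transporter (0.53 ± 0.15 SE, adjusted p = 0.0187). PGM1, a phosphoglucomutase (-0.21 ± 0.07 SE, adjusted p = 0.0347), and SLC2A4, the insulin-responsive transporter (-1.04 ± 0.35 SE, adjusted p = 0.0374), were lower in ABC, and were named after their values were seen. In GCB they were RPE, the epimerase beside RPIA (-0.33 ± 0.05 SE, adjusted p = 1.47e-04), SLC2A6 (-0.42 ± 0.10 SE, adjusted p = 0.00209) and H6PD, the dehydrogenase of the endoplasmic reticulum (0.40 ± 0.09 SE, adjusted p = 0.0026). RPE and RPIA both act on ribulose 5-phosphate. Of the genes for pyruvate entry into mitochondria, 1 of 12 was lower and 2 higher in ABC, and 1 of 11 lower and 3 higher in GCB, with medians of -0.03 and 0.04. The shares called higher, 16.7% and 27.3%, are close to those of all genes, and those called lower are 8.33% and 9.09%. PDK2, a further pyruvate dehydrogenase kinase, rose in ABC (0.43 ± 0.08 SE, adjusted p = 0.00112) and in GCB (0.68 ± 0.09 SE, adjusted p = 2.18e-05). PDPR, a regulator of the opposing phosphatase, rose in ABC (0.24 ± 0.07 SE, adjusted p = 0.0188), and PDHX, a subunit of the complex, fell (-0.21 ± 0.07 SE, adjusted p = 0.0268). In GCB MPC2, a subunit of the pyruvate carrier, rose (0.20 ± 0.06 SE, adjusted p = 0.0097) and PDP2, a phosphatase of the complex, fell (-0.26 ± 0.08 SE, adjusted p = 0.0173).

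Targets of hypoxia-inducible factor (HIF) outside glycolysis, 19 listed, had 2 of 14 tested lower and 2 higher in ABC (14.3% each, against 13.8% and 15.3% of all genes). In GCB 7 of 15 were lower and 5 higher (46.7% and 33.3%, against 23.5% and 25.9%), and the medians were -0.05 and -0.04. VEGFA, the angiogenic factor, fell in ABC (-0.52 ± 0.12 SE, adjusted p = 0.00592) and in GCB (-1.13 ± 0.16 SE, adjusted p = 4.35e-05). KDM3A, a histone demethylase (0.35 ± 0.08 SE, adjusted p = 0.00666), and BNIP3L, a mitophagy receptor (0.60 ± 0.15 SE, adjusted p = 0.00832), rose in ABC. In GCB DDIT4, an inhibitor of mTOR signaling (-0.75 ± 0.07 SE, adjusted p = 1.17e-06), and P4HA1, a collagen prolyl hydroxylase (-0.46 ± 0.05 SE, adjusted p = 2.72e-06), fell. Of 8 genes for glucose sensing and for factors that bind such promoters, 1 of 7 tested was lower and 2 higher in ABC, and 1 of 6 lower and 2 higher in GCB, with medians of -0.11 and 0.01. As shares these are 14.3% and 28.6% in ABC and 16.7% and 33.3% in GCB. TXNIP, which restrains glucose uptake, rose in ABC (1.32 ± 0.21 SE, adjusted p = 6.59e-04) and in GCB (1.06 ± 0.10 SE, adjusted p = 1.70e-06). ARNT, the partner of HIF, rose in ABC (0.38 ± 0.11 SE, adjusted p = 0.0206) and GCB (0.26 ± 0.07 SE, adjusted p = 0.00571), MLXIP, a glucose-responsive factor, fell in ABC (-0.40 ± 0.08 SE, adjusted p = 0.00239), and MYC fell in GCB (-0.25 ± 0.04 SE, adjusted p = 1.04e-04). HIF1A itself had -0.11 ± 0.11 (SE, adjusted p = 0.456) in ABC and 0.03 ± 0.05 (SE, adjusted p = 0.61) in GCB.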

How the data were processed

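RNA sequencing libraries of 4 DLBCL cell lines, 15 treated with AZD8186 and 15 with DMSO, were analysed from the gene tables deposited for each library. Per the labels and the notes of the submitters, reads were aligned to GRCh38.p12 with HISAT2 and quantified by RSEM, with versions not given in the sources used here. Deposited tables hold expected counts, which RSEM assigns by sharing ambiguous reads, as well as TPM, which the authors' RSEM run scaled by transcript length to a common total, and FPKM, which were not used. The concentration of AZD8186 was taken from the study's methods.

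Expected counts were rounded to whole numbers, filtered with filterByExpr by treatment, scaled by TMM and tested with edgeR 4.0.16 in R 4.3.3 (quasi-likelihood F test, Benjamini-Hochberg adjusted p under 0.05 over all genes tested). Each subtype was fitted with cell line, time and treatment. A joint fit of all 30 libraries held a term for each pair and a treatment effect for each line, and late was 18 and 24 h, against 6 and 12 h. Culture time was fitted as a line over the DMSO libraries, with the log2 change given over 18 h. SE of a log2 fold change was taken from the F statistic. For ratios by pair, a prior count of 2 entered the log2 CPM. TPM values were tested as log2(TPM + 1) with limma 3.58.1, a scale on which changes of low genes are understated. Scripts were tested on simulated data with known changes.

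The members and gene lists were chosen with earlier results of these data known. Of the members, 18 (HK1, HK2, PFKP, PFKL, PFKFB2, PFKFB3, PFKFB4, ALDOC, PGK1, PGAM1, ENO1, ENO2, PKM, LDHA, SLC16A1, PDK3, PGLS and RPIA) were named with full values by rule, the others by ranges and calls, and of each further list the 3 genes with the smallest p. The result of 1 such gene is not reported here. Levels were not tested between lines. No 2 libraries held identical values. Alternatives were DESeq2 1.42.0 and its size factors, no filter, at least 5 CPM, log2(TPM + 1), each pair left out, no 6 h libraries, no ribosomal genes, each line alone, a block per pair and, chosen after seeing the data, a filter by cell line and treatment.

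The AZD8186 and DMSO libraries of a pair share a line and a time. Over 9573 genes, deviations from the mean of line and treatment correlated within all 7 pairs of the ABC lines (0.185 to 0.403), so these behaved as pairs. In the GCB pairs the correlations were -0.0695 to 0.294. There the AZD8186 libraries of HT at 12 and 24 h and of K422 at 6 and 24 h correlated better with a DMSO library of another time. Adding the pair as a block to the subtype fits left 9 members lower and 2 higher in ABC, and 15 and 2 in GCB.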

Additional observations from a re-analysis of the deposited data

Results flagged for a closer look

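Among the log2 ratios of AZD8186 to DMSO, 62 sets of pairs (the 31 genes in ABC and in GCB) were examined for a value far from the others, and chance alone flags about 1 in 20 groups. Of these, 3 stood apart, all of them at 6 h. HK2 in TMD8 at 6 h had a ratio of -1.25, the lowest of the 7 ABC pairs. ENO2 in TMD8 at 6 h had a ratio of 0.41, the highest of the 7. SLC16A3 in K422 at 6 h had a ratio of -1.60, the lowest of the 8 GCB pairs. That ratio rests on 3 counts under AZD8186 and 15 under DMSO, and the other K422 libraries held 1 to 3.

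Responses that differed between subtypes, lines or times by edgeR's test of the difference were the following, each as a difference of log2 fold changes. For GCB minus ABC these were PFKP (-0.27, adjusted p = 0.00261), ALDOC (-0.38, adjusted p = 0.0469), PGLS (0.46, adjusted p = 0.0283) and RPIA (0.60, adjusted p = 0.00809). Spread between the lines of a subtype does not enter these p-values, and for PFKP the lines of the subtypes interleaved. Between the GCB lines, K422 minus HT, they were PFKL (-0.54, adjusted p = 0.00263), PFKP (-0.43, adjusted p = 0.00194), PFKFB3 (-0.46, adjusted p = 0.0173), PFKFB4 (-0.48, adjusted p = 0.0429), SLC16A1 (-0.41, adjusted p = 0.018) and PDK3 (0.43, adjusted p = 0.0449). TMD8 minus OCI-Ly10 gave PFKP (0.52, adjusted p = 0.00428). Late minus early in ABC gave PGAM1 (-0.40, adjusted p = 0.0457) and PKM (-0.50, adjusted p = 0.0453). For GCB minus ABC the members' share of calls (6.45% in each direction) was below that of all genes (8.99% and 9.99%). PFKP was the single gene found in 3 of these 4 contrasts.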

How the results depend on the processing

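Over the members' own values, 1518 stayed on their side of the threshold, 32 came to pass it and 176 no longer passed it. A further 1 that had been called changed sign, ENO1 over culture time, at 0.0087 on log2(TPM + 1). Sign changes of values that never passed are within the 1518, as for PFKFB4 in ABC (-0.08 to 0.127 over the leave-outs). All members were counted for ABC (28 of the 32) and GCB (4). Elsewhere only members called in the main fit were counted, so newly passing ones are missing. For late minus early in ABC, for example, 2 were lower in the main fit and 13 on log2(TPM + 1). A block per pair changed no call: 9 members were lower and 2 higher in ABC, and 15 and 2 in GCB. In GCB the same-time libraries of K422 at 6 h and 24 h did not deviate together (correlations of -0.03 and -0.07).

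With each pair left out in turn, members lower and higher numbered 4 to 11 and 0 to 4 in ABC, 13 to 15 and 2 to 3 in GCB, 4 to 7 and 1 to 2 in OCI-Ly10, 3 to 5 and 0 to 2 in TMD8, 2 to 6 and 1 to 3 in HT, and 13 to 16 and 2 to 3 in K422. For GCB minus ABC they numbered 1 to 4 and 1 to 4, for K422 minus HT 3 to 7 and 0 to 1, for TMD8 minus OCI-Ly10 0 to 2 and 1 to 2, for late minus early 0 to 2 and 0 in ABC and 0 to 1 and 0 to 1 in GCB, and over culture time 2 to 4 and 1 to 5. Of all genes, 970 to 1893 were lower in ABC, 2122 to 2571 in GCB and 556 to 1467 in OCI-Ly10. In TMD8 these were 479 to 939, in HT 437 to 801 and in K422 2092 to 2548. Called higher were 1124 to 1965 genes in ABC, 2318 to 2774 in GCB and 572 to 1602 in OCI-Ly10. In TMD8 these were 446 to 929, in HT 564 to 1041 and in K422 2254 to 2930. For GCB minus ABC 810 to 1265 of all genes were lower and 902 to 1282 higher. For K422 minus HT these were 404 to 969 and 327 to 998. Leave-out numbers of all genes are not given here for the other contrasts and culture time.

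On log2(TPM + 1), 19 members were lower and 0 higher in ABC, 13 and 0 in OCI-Ly10, and 14 and 0 in TMD8. For GCB minus ABC 0 were lower, for K422 minus HT 0 higher (beside 3.69% of all genes), for TMD8 minus OCI-Ly10 2 higher, for late minus early in ABC 13 lower, and over culture time 1 was lower and 18 higher. Without a filter, 1 was lower for GCB minus ABC and 0 higher for K422 minus HT, beside 835 and 555 of all genes. For late minus early in GCB 2 were then lower and 1 higher, with no number of all genes given. With at least 5 CPM, 1 was higher in OCI-Ly10 and 4 higher for GCB minus ABC, beside 1379 and 1041 of all genes. With DESeq2's size factors, 1 was lower for GCB minus ABC, beside 957 of all genes, and 1 lower for late minus early in ABC. Without the 6 h libraries 4 were higher in ABC, beside 1943 of all genes. In models of a line alone, TMD8 had 1 lower and 0 higher, beside 138 and 265 of all genes, and HT 12 lower, beside 2027. With the filter by cell line and treatment, chosen after seeing the data, 1 was lower for GCB minus ABC and 0 higher for K422 minus HT, beside 959 and 615 of all genes. The causes were not tested.

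With 1 library per condition, a change at a single time point had no replicate, and PFKFB2, SLC2A3 and SLC16A3 had few counts in some lines.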
